A study of Arabidopsis thaliana with 3 samples.

Results

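The UGT genes of Arabidopsis thaliana encode UDP-dependent glycosyltransferases, and 21 of the 14338 probe sets in the table belonged to them. A probe set was counted where its only gene symbol in the platform annotation was UGT followed by a family number and a letter. All 21 matched a locus in the RefSeq gene table, where 58 loci carry such a symbol, and they fell into 11 families by number. Another 3 probe sets that pair a UGT with a second gene were left out.

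A UGT transfers a sugar, most often glucose, from a UDP-sugar to a small acceptor molecule. The acceptors include flavonoids, the alcohols from which lignin is built, sterols and hormones such as auxin, cytokinin and abscisic acid. The glycoside formed is usually more soluble and less reactive than its acceptor and can be stored in the vacuole. For a plant hormone, glycosylation is one of the ways in which the active form is withdrawn.

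The samples were lateral nectaries, the larger nectar glands at the base of the Arabidopsis flower, taken from plants of the Columbia-0 ecotype aged 30 to 35 days. There were 2 samples of the cwinv4-1 mutant and 1 wild-type sample. CWINV4 encodes a cell wall invertase, which splits sucrose outside the cell, and the series title calls the mutant nectarless. The title of cwinv4-1 replicate 1 adds a letter, cwinv4-1a, whose meaning is not given in the sources used here. Flowers were at stages 14 to 15, when nectar is secreted, and each sample pooled about 250 to 300 glands onto its own 1-colour Affymetrix array. In such pooled glands, fewer cells of a type and less RNA per cell cannot be told apart.

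The mutant arrays gave a signal for 12441 and 11365 probe sets and the wild-type array for 12455, and what an empty cell means is not stated. Replicate 2 stood apart: over the 10334 probe sets with 3 signals, log2 differences between the mutant samples had an SD of 0.65, and those of replicate 1 from wild-type had an SD of 0.44. Its 3′ to 5′ signal ratio for a GAPDH control pair was 11.2, against 2.87 on replicate 1 and 4.82 on wild-type. CWINV4 has no named probe set here, so the mutated gene could not check the labels. Of 10 nectary markers only SWEET9, the sucrose exporter of nectaries, and JMT, a jasmonate methyltransferase, had a named probe set. SWEET9 read 16300 and 38100 in the mutant samples and 19700 in wild-type. JMT read 12400, 2368 and 11900 in the same order. Both were thus bright on all 3 arrays, and JMT was far lower on replicate 2 alone.

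No UGT gene passed the test between cwinv4-1 and wild-type nectaries. In families 71, 72, 73, 74, 78 and 80, 9 probe sets had a signal on all 3 arrays, and 8 of them were bright enough to be tested. UGT78D2 and UGT74B1 were above wild-type on both mutant arrays, UGT71B1 was below it on both, and the other 5 tested genes lay above it on replicate 1 and below it on replicate 2. UGT74D1, an auxin glucosyltransferase whose mean signal was too low for it to be tested, read 285.4 and 230.1 in the mutant samples and 75.6 in wild-type, a dim reading on which its ratio rests. The remaining 12 probe sets lacked a signal on at least 1 array, and among them UGT76E12 read 88.2 on replicate 1, had no signal on replicate 2 and read 586.5 in wild-type.

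**Figure D1:**
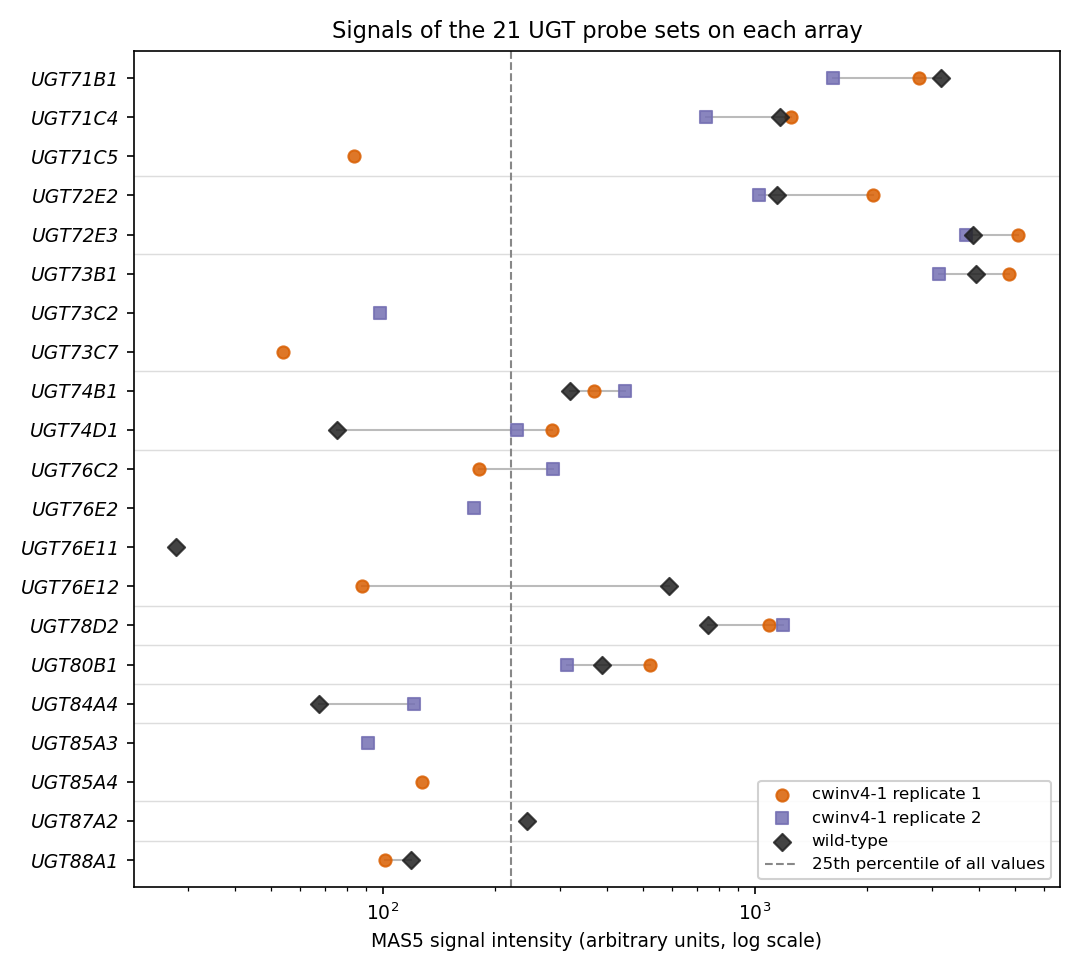
Signal of each UGT probe set on a log axis (MAS5 intensity, arbitrary units), with cwinv4-1 replicate 1 as circles, cwinv4-1 replicate 2 as squares and wild-type as diamonds. A missing marker means that no signal was given, grey lines separate the families, and the dashed line is the 25th percentile of all values, 222. The 8 tested genes lie to the right of it on every array, and most of the others lie to its left.

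The test was limma's moderated test on log2 signals, run over 7750 probe sets with a mean signal of at least 310.6. The mutant samples supply its only residual degree of freedom, and the single wild-type sample is assumed to vary as they do. At a Benjamini-Hochberg adjusted p of 0.05, 33 probe sets, 0.426% of those tested, were called. None of the 8 UGT genes was among them, the smallest limma adjusted p being 0.993. At an unadjusted limma p under 0.05 the count was 0 of 8 UGT genes and 503 of 7750 probe sets, 6.49%. Standard errors of the 8 log2 fold changes ran from 0.38 to 0.43. They rest mostly on a variance trend over all tested probe sets (prior degrees of freedom 15.4, residual 1), not on each gene's own spread.

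The median log2 fold change of the 8 tested UGT genes was 0.11, and that of all tested probe sets was -0.05. By array, the UGT median was 0.35 on replicate 1 and -0.24 on replicate 2, against -0.01 and -0.08 for all tested probe sets. The sign of the family's median therefore turned with the mutant sample used. Both ratios are taken over the same wild-type array.

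The mutant samples lay on the same side of wild-type for 3 of the 8 genes. Above wild-type on both arrays were 2 UGT genes, where 30.0% of all tested probe sets were. Below it on both was 1, against 37.2% of all. The other 5 lay above wild-type on replicate 1 and below it on replicate 2, a pattern held by 18.6% of all tested probe sets. No tested UGT gene was at least 1.5-fold above wild-type on both mutant arrays, or 1.5-fold below it on both, which held for 4.19% and 3.43% of all tested probe sets.

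Family 78 was represented by UGT78D2, the flavonoid 3-O-glucosyltransferase that acts on flavonols and anthocyanidins (AT5G17050). Its signals were 1090 and 1193 in the mutant samples and 749.8 in wild-type. Both mutant samples were above wild-type, and the 2 mutant values were closer to each other than to it. The fold change was 1.52 (limma: log2 change 0.60 ± 0.38 SE, adjusted p = 0.993). Among all tested probe sets, 92.6% had a log2 fold change at or below that of UGT78D2.

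Family 74 held UGT74B1 and UGT74D1. UGT74B1, which adds glucose to thiohydroximates in glucosinolate synthesis (AT1G24100), read 368.8 and 446.9 in the mutant samples against 317.9 in wild-type. It was higher on both mutant arrays, but by 1.28-fold on average, which is within 1 standard error (limma: log2 change 0.35 ± 0.41 SE, adjusted p = 1.00).

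UGT74D1, which glucosylates auxins and their oxidised forms (AT2G31750), read 285.4 and 230.1 in the mutant samples and 75.6 in wild-type. These are ratios of 3.78 and 3.04 over wild-type, and the mutant values differed from each other by 1.24-fold. Of the 10334 probe sets with 3 signals, 31, or 0.300%, were at least 3-fold above wild-type on both mutant arrays. The 3-fold cut-off was chosen after these ratios were seen, so the share is a description only. The mean signal of UGT74D1 fell short of the minimum for the test. In a fit without that minimum, which called 1.22% of probe sets, it did not pass (limma: log2 change 1.76 ± 0.66 SE, adjusted p = 0.272 over 10334 probe sets). It was among the 6.60% of probe sets with an unadjusted p under 0.05 there.

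The wild-type signal of UGT74D1 lay at percentile 6.62 of its array. With a floor of 222, which is the 25th percentile over all values, in place of the wild-type reading, the mutant signals were 1.29 and 1.04 times as high. The signal on replicate 2 was itself under the 25th percentile of its array, 266.4. The large ratio therefore rests on a single dim wild-type reading.

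Family 72 held UGT72E2 and UGT72E3, both of which glucosylate the monolignols, the alcohols that polymerise into lignin. UGT72E2 (AT5G66690) read 2084 and 1025 in the mutant samples and 1148 in wild-type. Replicate 1 was 1.82-fold above wild-type and replicate 2 slightly below it, so the wild-type value lay between those of the mutant samples. With wild-type between the mutant arrays, their 2.03-fold gap had to exceed the mean difference of 1.27-fold from wild-type (limma: log2 change 0.35 ± 0.43 SE, adjusted p = 1.00).

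UGT72E3 (AT5G26310) read 5088 and 3696 in the mutant samples and 3852 in wild-type. It had the same order of arrays as UGT72E2, with smaller distances. Its log2 differences from wild-type were 0.40 on replicate 1 and -0.06 on replicate 2 (limma: log2 change 0.17 ± 0.40 SE, adjusted p = 1.00). Its signal was near the upper end of each array, at percentiles 95.5 and 92.4 in the mutant samples and 93.4 in wild-type.

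Family 73 had 3 probe sets, of which UGT73B1 (AT4G34138) alone gave a signal throughout. It lies next to UGT73B2, a flavonol glucosyltransferase, in the RefSeq gene order. UGT73B1 read 4812 and 3119 in the mutant samples and 3931 in wild-type. Wild-type again lay between the mutant samples, and the mean difference was near 0 (limma: log2 change -0.02 ± 0.41 SE, adjusted p = 1.00). UGT73C7, which acts on hydroxycinnamic acids, read 54.0 on replicate 1, and UGT73C2 read 98.2 on replicate 2. Neither had a signal on any other array.

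Family 71 held UGT71B1, UGT71C4 and UGT71C5. UGT71B1 (AT3G21750) read 2771 and 1625 in the mutant samples and 3161 in wild-type. It was the only tested UGT gene below wild-type on both mutant arrays, by 1.14-fold on replicate 1 and 1.95-fold on replicate 2. The mean difference was 1.49-fold (limma: log2 change -0.57 ± 0.41 SE, adjusted p = 1.00), and 9.3% of tested probe sets were at or below it.

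UGT71C4 (AT1G07250) read 1255 and 740.9 in the mutant samples and 1168 in wild-type. Its log2 difference was 0.10 on replicate 1 and -0.66 on replicate 2, so the 2 mutant samples lay on either side of wild-type, replicate 2 farther from it (limma: log2 change -0.28 ± 0.41 SE, adjusted p = 1.00). The neighbouring gene UGT71C5, which glucosylates abscisic acid, had a signal on replicate 1 alone, 83.6 at percentile 8.95 of that array. Adjacent genes of this cluster thus differed in whether they gave a signal, and signals of different probe sets cannot be set against each other in size.

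Family 80 differs from the rest in acting on sterols. Its member UGT80B1, a sterol glucosyltransferase also known as TRANSPARENT TESTA 15 for its seed coat phenotype (AT1G43620), read 523.6 and 312.9 in the mutant samples and 389.3 in wild-type. Wild-type lay between the mutant samples once more (limma: log2 change 0.06 ± 0.43 SE, adjusted p = 1.00).

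**Figure D2:**
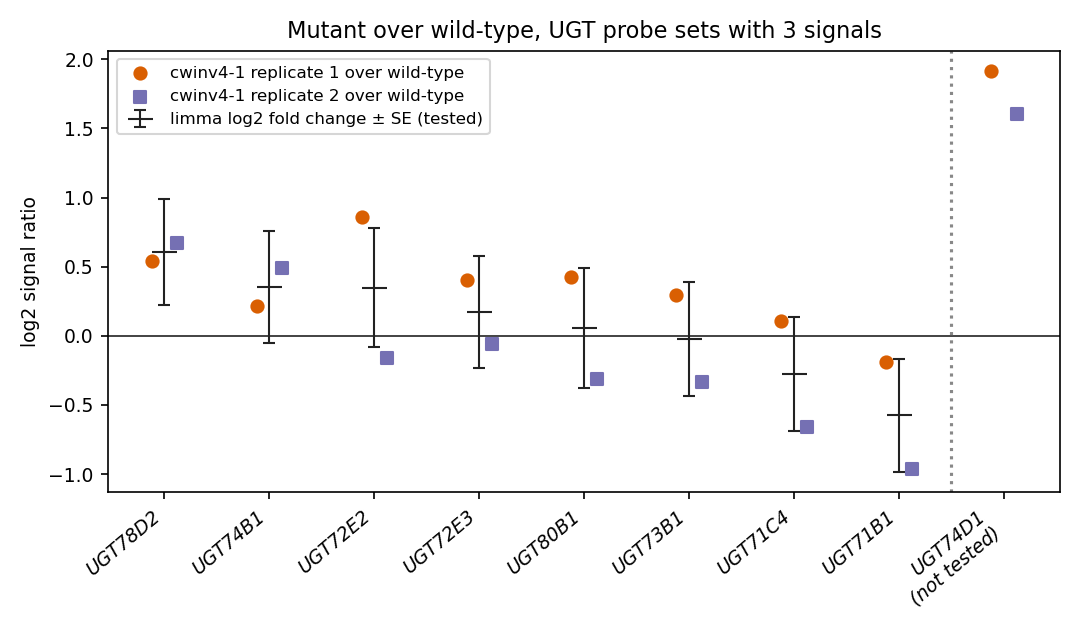
Log2 signal ratio over wild-type of the 9 UGT genes with 3 signals, for cwinv4-1 replicate 1 (circles) and replicate 2 (squares), with the limma log2 fold change and its standard error as black bars for the 8 tested genes. For 5 of the tested genes the circle is above 0 and the square below it, and UGT74D1, which was not tested, stands at 1.92 and 1.61.

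At the median, the gap between the mutant samples was wider over these genes than over all tested probe sets. Replicate 2 was below replicate 1 for 6 of the 8 tested UGT genes, and for 56.6% of all tested probe sets. The median log2 difference between the mutant arrays was -0.68 over the 8 genes and -0.08 over all. Without regard to sign the medians were 0.68 and 0.31.

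Among the 8, UGT72E2 had the widest gap between the mutant arrays, at a log2 difference of -1.02, with 3.6% of tested probe sets at or below it. UGT71B1, UGT71C4 and UGT80B1 followed at -0.77, -0.76 and -0.74. Only UGT78D2 and UGT74B1 were higher on replicate 2, by 0.13 and 0.28. The gap was wider than the fold change from wild-type for 6 of the 8 genes, and for 57.2% of all tested probe sets. Where wild-type lay between the mutant arrays this had to be so, because the fold change averages differences of opposite sign. Replicate 2 also had the GAPDH ratios given above, and the part of 3′ bias in these gaps was not tested.

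**Figure D3:**
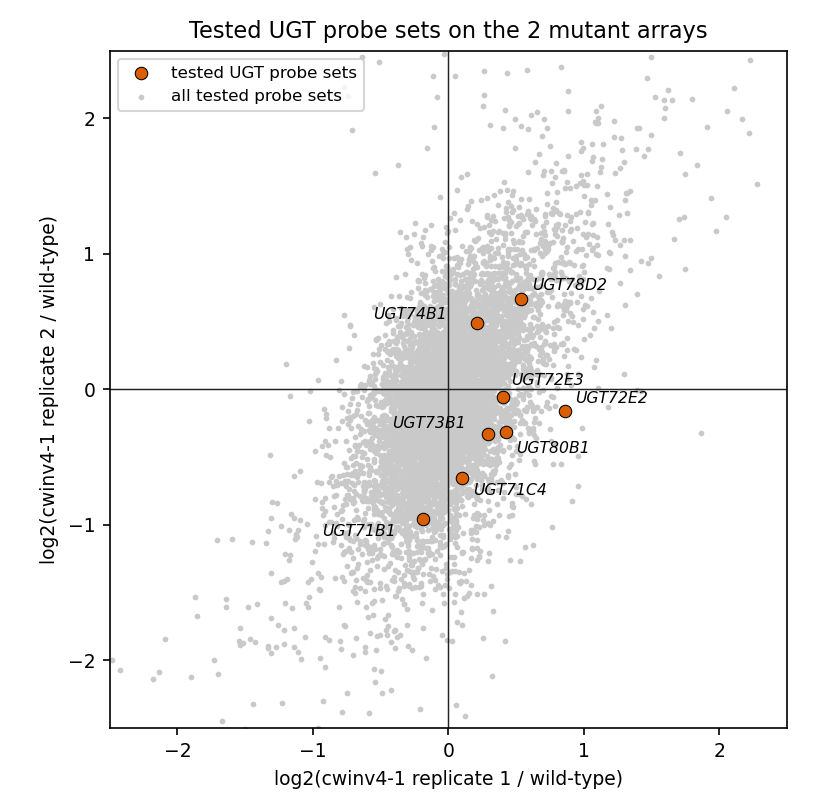
Log2 ratio over wild-type on cwinv4-1 replicate 1 (x axis) and replicate 2 (y axis) for the 8 tested UGT genes (large points) and all tested probe sets (grey), with 59 probe sets beyond the drawn range of 2.5 in either direction. Both axes share the wild-type array, which spreads the points along the diagonal, and 5 UGT genes lie in the lower right quadrant.

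The UGT probe sets often lacked a signal. Of the 21, 9 had a signal on all 3 arrays (42.9%, against 72.1% of all probe sets), 4 had it on 2 arrays and 8 on 1 array. Among all probe sets, 12.9% had a signal on 2 arrays and 10.9% on 1. By array, 15 and 14 of the 21 had a signal in the mutant samples and 14 in wild-type. The share of UGT genes without a signal was 28.6% and 33.3% in the mutant samples and 33.3% in wild-type, and over all probe sets it was 13.2% and 20.7% in the mutant samples and 13.1% in wild-type. No UGT gene was without a signal on every array, which 4.12% of all probe sets were.

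**Figure D4:**
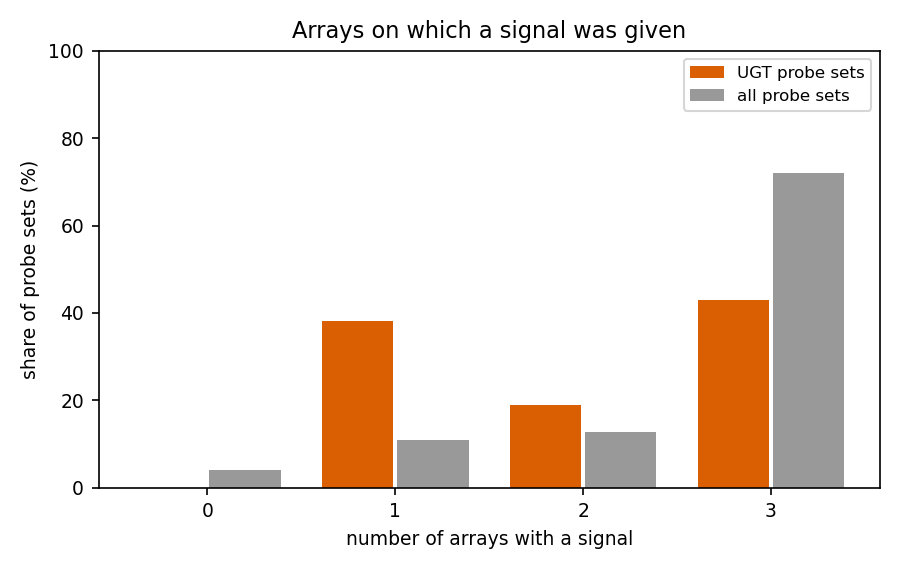
Share of probe sets (%) by the number of arrays on which a signal was given, for the 21 UGT probe sets and for all 14338 probe sets. A signal on all 3 arrays was given for 42.9% of the UGT probe sets and for 72.1% of all, and no UGT probe set was without a signal on every array.

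Family 76 had the most members and none with 3 signals. UGT76C2, which inactivates cytokinins by N-glucosylation (AT5G05860), read 181.3 and 287.3 in the mutant samples and had no signal in wild-type. It was the only UGT gene with this pattern, which 1.56% of all probe sets shared. Both mutant signals were low, at percentiles 23.7 and 27.4 of their arrays. Of 242 other probe sets within 1.2-fold of UGT76C2 on both mutant arrays, 7 had no wild-type signal, or 2.89%.

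UGT76E12 (AT3G46660) belongs to a group in which UGT76E1 glucosylates a hydroxylated jasmonate. It read 88.2 on replicate 1, had no signal on replicate 2 and read 586.5 in wild-type. The signal in wild-type was 6.65 times that on replicate 1 (log2 difference -2.73), and it sat at percentile 54.2 of the wild-type array while that on replicate 1 sat at percentile 9.65. A signal on replicate 1 and wild-type but not on replicate 2 was seen for 9.97% of all probe sets.

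At the wild-type brightness of UGT76E12 such losses were less frequent. Of 1361 other probe sets within 1.2-fold of its wild-type signal, 43 had no signal on replicate 2 (3.16%). Of the 1361, 3 (0.220%) were, on each mutant array, either without a signal or at least as far below wild-type as UGT76E12 was on replicate 1. That cut-off is the gene's own ratio, set after its values were seen, so the share is a description only. With a floor at a signal of 222 the log2 difference of UGT76E12 on replicate 1 was -1.40 in place of -2.73. The gene could not enter the fit, and the difference has no test.

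UGT76E11, separated from UGT76E12 by 1 protein-coding gene in the RefSeq gene order, had no signal in either mutant sample and read 27.9 in wild-type. UGT76E2 read 175.7 on replicate 2 alone. The wild-type reading of UGT76E11 was at percentile 0.39 of its array, so nothing can be read from its absence elsewhere.

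UGT87A2, a gene linked to flowering time (AT2G30140), had no signal in either mutant sample and read 245.0 in wild-type. A signal in wild-type alone was given for 3.47% of all probe sets. Of 1170 other probe sets within 1.2-fold of this wild-type signal, 35 likewise had none on either mutant array, or 2.99%, and 274 had none on replicate 2, or 23.4%. Without replicate 2 the pattern rests on replicate 1, where 41 of the 1170 lacked a signal, or 3.50%.

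UGT84A4, which forms glucose esters of hydroxycinnamic acids, read 121.7 on replicate 2, had no signal on replicate 1 and read 67.3 in wild-type. A signal on replicate 2 and wild-type alone was given for 1.35% of all probe sets. UGT88A1 read 101.6 on replicate 1, had none on replicate 2 and read 119.3 in wild-type. All 4 of these signals were under the 25th percentile of their arrays, and with the floor at 222 both log2 differences became 0.

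UGT85A4 read 127.5 on replicate 1 alone and UGT85A3 read 91.4 on replicate 2 alone. A signal on replicate 1 alone was given for 3 UGT genes, 14.3% of the UGT probe sets, and for 3.17% of all probe sets. For replicate 2 alone it was again 3 UGT genes, 14.3%, and 4.29% of all. The 2 family 85 probe sets counted here thus gave no signal in wild-type and none that both mutant samples shared. Both readings were dim, at percentile 15.96 of replicate 1 for UGT85A4 and 2.31 of replicate 2 for UGT85A3.

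Few other genes of the pathways in which UGTs act had a named probe set. Of 19 phenylpropanoid loci 2 were tested and both were above wild-type on both mutant arrays without passing. Of all tested probe sets, 30.0% were above it on both. HCT, a hydroxycinnamoyl transferase of lignin synthesis, did not pass (limma: log2 change 0.38, adjusted p = 1.00). REF1, an aldehyde dehydrogenase that forms ferulic and sinapic acid, read 13500 and 22700 in the mutant samples and 11300 in wild-type (limma: log2 change 0.63, adjusted p = 1.00).

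Of 22 loci that supply UDP-sugars, only USP, a UDP-sugar pyrophosphorylase, was tested, at a log2 difference of 0.71 on replicate 1 and 0.11 on replicate 2. None of the 14 flavonoid or 13 glucosinolate loci had a named probe set, so the partners of UGT78D2 and UGT74B1 were not analysed here. Glutathione transferases, which like UGTs conjugate foreign compounds, had 7 named probe sets and 3 tested, of which none passed. GSTU20 read 351.9 and 784.2 in the mutant samples and 297.8 in wild-type (limma: log2 change 0.82, adjusted p = 0.951). GSTU18 and GSTU16 had log2 fold changes of 0.30 and -0.13.

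Glycosyltransferases of the same kind under other symbols had 3 named probe sets and 2 tested, of which none passed. IAGLU, an indole-3-acetate glucosyltransferase, read 1810 and 1183 in the mutant samples and 1551 in wild-type, again with wild-type between the mutant samples. SGT, listed as UGT80A2 and a sterol glucosyltransferase like UGT80B1, read 443.2 and 415.2 in the mutant samples and 548.7 in wild-type (limma: log2 change -0.36, adjusted p = 1.00). It was below wild-type on both mutant arrays, whereas UGT80B1 was not. GT72B1, listed as UGT72B1, had no signal in either mutant sample and read 70.5 in wild-type.

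Of the 9 pollen, anther and carpel loci listed as markers of neighbouring tissue, 3 had a named probe set. Their summed signal was 1951 and 1154 in the mutant samples and 2210 in wild-type, lowest on replicate 2. On that array 6 of the 8 tested UGT genes, and 56.6% of all tested probe sets, read lower than on replicate 1. The pollen gene AT3G07820 read 569.1 and 128.2 in the mutant samples and 658.0 in wild-type, and the carpel regulator SPT read 767.7, 390.9 and 877.3 in the same order. The third, AT5G45880, differed little, at 614.1, 634.8 and 674.3. All 3 gave a signal on every array, and their part in the UGT values was not tested.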

How the data were processed

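RNA of 3 lateral nectary samples was measured on 1-colour Affymetrix arrays after 1 round of amplification of 500 ng of total RNA. The authors made the values with MAS5, per the submitters' processing notes, and deposited them as signal intensities on a linear scale. Neither a version nor a target level is given in the sources used here. Per the series' design text, further wild-type arrays from lateral nectaries entered the normalization, which are not used here. Empty cells were kept as missing, and the 37 control probe sets took part in no comparison.

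Probe sets were named through the platform annotation and matched by gene number to RefSeq (TAIR10.1). Cross-hybridisation among related UGT genes was not tested.

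Log2 intensities were tested with limma 3.58.1 in R 4.3.3 (lmFit, eBayes with a trend), two-sided, cwinv4-1 minus wild-type, on probe sets with 3 signals and a mean log2 value at or above the 25th percentile, with Benjamini-Hochberg adjustment over all of them, and the fit was tested on simulated data. Percentiles count the probe sets with a signal on that array. The number of arrays limits the precision. The p-values rest on the spread between the mutant samples, moderated by a variance trend over all tested probe sets. They measure no spread among wild-type samples or beyond the samples used here. The members and gene lists were chosen with earlier results of these data known. Every UGT gene is named, with up to 3 loci of each other list. The shares of probe sets of like brightness, the 3-fold count and the gaps between the mutant arrays were added after the values were seen.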

Additional observations from a re-analysis of the deposited data

How the results depend on the processing

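No UGT gene passed limma's test in any of the 9 settings run, which changed the normalization, the treatment or filter of low signals, or the variance prior. After quantile normalization, or with the floor, no probe set of any kind was called. UGT78D2 kept a log2 fold change of 0.49 to 0.65 (adjusted p 0.920 to 1.00) and UGT71B1 one of -0.62 to -0.53 (adjusted p 0.901 to 1.00). No sign of the 8 tested genes turned in these settings. The family's median log2 fold change ran from 0.07 to 0.17, and was -0.24 without replicate 1 and 0.35 without replicate 2. Leaving out a mutant sample leaves the ratio of the other one over wild-type, as given above, and is no separate check. The sign thus turned for the 5 genes with wild-type between the mutant samples. Without replicate 1 and without replicate 2, UGT72E2 was at -0.16 and 0.86, UGT72E3 at -0.06 and 0.40, UGT80B1 at -0.32 and 0.43, UGT71C4 at -0.66 and 0.10, and UGT73B1 at -0.33 and 0.29.

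The count above wild-type on both mutant arrays was 2. With the filter at the 50th percentile, where 6 UGT genes were tested, it was 1, and without the filter, where 9 were, it was 3. On single arrays it was 2 without replicate 1 and 7 without replicate 2, and the count below wild-type was 6 and 1. Of all tested probe sets, 55.85% were below wild-type without replicate 1 and 51.26% without replicate 2. No tested gene was at least 1.5-fold from wild-type on both arrays, and 1 was without the filter (UGT74D1). On single arrays 3 were without replicate 1 and 1 without replicate 2. The share over all probe sets was not taken for these single-array counts, so they have no background. The calls over all probe sets were 33, against 0 after quantile normalization or with a floor, 95 with median centring, 126 without the filter and 90 with the filter at the 50th percentile. At an unadjusted limma p under 0.05, quantile normalization left 397 probe sets and the floor 479. Quantile normalization ran on probe sets with 3 signals, so it gave no value for UGT76E12, UGT84A4 and UGT88A1. No paired analysis was possible because the groups share only 1 replicate number and wild-type is a single array.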
